A study of Mus musculus with 8 samples.

Results

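Small interfering RNAs (siRNAs) directed at the same transcript were compared with each other in mouse embryonic stem cells. The 5 arrays compared, of 8 in all, were the 2 titled siRNA 2 and the 3 titled siRNA 1, and the 3 arrays of a control siRNA stand beside them as the reference level. All cells were of the R1 line, a mouse embryonic stem cell line, grown in pluripotent conditions, and RNA was taken 48 hours after transfection. Every group, the controls included, was transfected with an siRNA, so an effect of transfection itself is shared by all arrays. Both siRNAs are directed at CnAb1, a spliced form of the calcineurin beta catalytic subunit, whose gene is Ppp3cb. Nothing in the labels ties replicates to separate cultures, and p-values therefore measure only how far these samples spread, which may be a technical spread.

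Calcineurin is a calcium-dependent phosphatase made of a catalytic and a regulatory subunit, best known for removing phosphates from NFAT transcription factors, which then enter the nucleus. CnAb1 carries an unusual carboxyl end that comes from a retained intron. An siRNA loads into an Argonaute protein, which cleaves the transcripts it matches in full, and its seed bases can also pair with other transcripts and lower them. Cells transfected with siRNAs of different sequence but the same target share the effects of the target and need not share the others.

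The arrays read as embryonic stem cells in all groups. All 10 defining markers tested, Pou5f1, Nanog and Sox2 among them, lay at or above the 87.4th percentile of genes, and their mean per array ran from 12.82 to 12.86 with control siRNA, 12.80 to 12.89 with siRNA 1 and 12.79 to 12.82 with siRNA 2 (log2 units, in which all levels below are given). Correlation over the whole table did not group the arrays by siRNA. Across the 19935 genes tested, which are not independent replicates, Pearson's r between a siRNA 1 and a siRNA 2 array was 0.9960 to 0.9985, against 0.9949 to 0.9976 among the siRNA 1 arrays and 0.9978 between the siRNA 2 arrays. The median gene had an SD of 0.095 over the siRNA 1 arrays, 0.06 over the siRNA 2 arrays and 0.056 over the controls. siRNA 1 replicates 1 and 2 were the least alike pair, and array weights estimated from the residuals were 0.31 and 0.41 for them and 3.56 for replicate 3.

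No gene differed between the siRNAs past the threshold, an adjusted p under 0.05 in limma's moderated test with Benjamini-Hochberg adjustment over 19935 genes (0 called, 0.0%). The smallest adjusted p was 0.482, for Fabp3, and every other gene was at 1. Before adjustment, p was under 0.05 for 893 genes (4.48%), of which 290 lay higher with siRNA 2 (1.45%) and 603 lower (3.02%), where 5% of the genes tested would be 997. The split by direction depended on how arrays were scaled: 32.5% of these genes were higher on the values as deposited, 56.2% (469 of 835) after centring arrays on their medians and 47.8% (654 of 1369) after quantile normalization. Over all genes 8862 differences were positive (44.5%) and 11073 negative (55.5%). The median difference was -0.011, and 0.010 and 0.000 under these other scalings. Against control siRNA, in contrasts that share the control arrays, 0 genes were called for either siRNA and 1063 (5.33%; 604 higher, 3.03%, and 459 lower, 2.3%) had an unadjusted p under 0.05 with siRNA 1 and 1211 (6.07%; 510 higher, 2.56%, and 701 lower, 3.52%) with siRNA 2. Single arrays moved the counts as well. Without siRNA 1 replicate 1 there were 1496 genes (640 higher), without siRNA 1 replicate 2 there were 1579 (1160 lower), and without siRNA 2 replicate 2 there were 421 (110 higher, 311 lower). The higher genes numbered 573 without siRNA 2 replicate 1, and 193 and 181 without control replicates 2 and 3. With each array left out in turn, 0 genes were called.

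Differences were small in size. The largest was for Rnu3a, a U3 small nucleolar RNA gene, at -0.55 (siRNA 2 minus siRNA 1, SE 0.30); it stands outside the rule for named genes, and was looked up after its value was seen. Its siRNA 1 arrays read 9.70, 8.37 and 9.10 and spanned the siRNA 2 arrays at 8.62 and 8.40. Beyond 0.5 in size there were 2 genes, both lower with siRNA 2, and none of the genes reached 1. The 95% interval of the difference lay within 2-fold either way for 19934 genes and within 1.5-fold for 99.6% of them.

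The siRNA 1 and siRNA 2 arrays did not overlap for 3076 genes (15.4%). Both siRNA 2 arrays lay above all siRNA 1 arrays for 1104 genes (5.54%) and below them for 1972 (9.89%). The siRNA arrays can be split into groups of these sizes in 10 ways. Of these 10 splits, 1 gives the first order and 1 the second, whatever the gene. Neither share exceeded 1 in 10, so these counts are not evidence that the siRNAs differ. These counts moved with scaling too, to 1724 above and 1250 below after median centring. Leaving out any 1 siRNA array leaves fewer arrays to separate and gave 1860 to 3985 above and 3148 to 4782 below, the lowest without siRNA 1 replicate 3 and the highest without siRNA 2 replicate 1. For 36 genes (0.181%) the siRNA 1 arrays lay below and the siRNA 2 arrays above every control, and for 47 (0.236%) the reverse held. With so few arrays some genes take such an order without any difference. How many would lie on opposite sides of the controls in this way was not tested, and these counts are not evidence of opposite effects.

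Among the genes named as lower with siRNA 2, the 3 with the smallest unadjusted p encode small carrier and metal-binding proteins and are abundant, at or above the 92.6th percentile of genes. Fabp3 encodes a fatty acid binding protein that carries long-chain fatty acids in the cytoplasm, Crabp1 a cellular retinoic acid binding protein of the same fold, and Mt1 a metallothionein, a zinc- and copper-binding protein induced by metals. Their promoters are shown because Mt1 and its neighbour Mt2 had unlike differences on the arrays, and because metallothionein genes are known for metal response elements, the sites of the metal-sensing factor MTF1. The 250 bases before each annotated start are from RefSeq (GRCm38.p6, plus strand). Capitals mark the element's core, searched as TGCGCNC or TGCACNC on both strands.
Fabp3: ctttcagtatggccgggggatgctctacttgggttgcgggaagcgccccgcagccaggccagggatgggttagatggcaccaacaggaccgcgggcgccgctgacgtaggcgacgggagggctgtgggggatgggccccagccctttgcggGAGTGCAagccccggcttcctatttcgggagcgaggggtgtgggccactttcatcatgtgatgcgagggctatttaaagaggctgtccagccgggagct
Crabp1: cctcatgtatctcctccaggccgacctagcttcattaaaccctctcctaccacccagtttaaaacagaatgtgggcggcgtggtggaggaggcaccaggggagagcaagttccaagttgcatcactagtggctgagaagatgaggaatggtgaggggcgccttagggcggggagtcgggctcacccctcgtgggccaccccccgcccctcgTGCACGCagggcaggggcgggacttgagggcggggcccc
Mt1: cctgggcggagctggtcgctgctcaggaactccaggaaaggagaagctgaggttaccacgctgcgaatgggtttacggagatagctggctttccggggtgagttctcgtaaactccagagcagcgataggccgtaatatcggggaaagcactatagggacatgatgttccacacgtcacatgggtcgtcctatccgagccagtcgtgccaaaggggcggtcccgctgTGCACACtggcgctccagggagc
Mt2: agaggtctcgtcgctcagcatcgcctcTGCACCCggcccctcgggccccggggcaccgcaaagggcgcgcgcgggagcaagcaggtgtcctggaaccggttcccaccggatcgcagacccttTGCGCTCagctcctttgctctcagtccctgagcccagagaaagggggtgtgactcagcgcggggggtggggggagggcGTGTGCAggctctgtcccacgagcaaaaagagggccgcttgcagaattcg

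The windows are chr4:130308488-130308737 for Fabp3, chr9:54764498-54764747 for Crabp1, chr8:94178839-94179088 for Mt1 and chr8:94172368-94172617 for Mt2. The core occurred 1 time each before Fabp3, Crabp1 and Mt1 and 3 times before Mt2. With the 50 bases after the start counted as well, which are not printed, it occurred 3 times at Mt1 and 4 times at Mt2, and still 1 time each at Fabp3 and Crabp1. Of 32851 RefSeq promoter windows of this length 21.4% held at least 1 match and 1.26% at least 3, so a single match is common. A match is a run of letters and not a measured site. The count at Mt1 rose from 1 to 3 with the further 50 bases, so it depends on where the window ends. A link between these counts and the differences on the arrays was not tested.

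Fabp3 read 12.01, 11.90 and 11.98 with siRNA 1 and 11.54 and 11.44 with siRNA 2, beside 11.84, 11.76 and 11.78 with control siRNA. Every siRNA 1 array lay above and both siRNA 2 arrays below all controls. The difference was -0.47 (SE 0.06, 95% interval -0.61 to -0.33, 1.39-fold higher with siRNA 1; limma adjusted p = 0.482, unadjusted p = 2.42e-05), and it ran from -0.52 to -0.42 as arrays were left out in turn. With limma's trend and robust moderation in place of the plain fit 3 genes passed, Fabp3 at an adjusted p of 0.0151 and Crabp1 and Mt1 at 0.0476. Over the alternatives run these 3 were the only genes called.

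Crabp1 read 12.09, 12.06 and 12.03 with siRNA 1, 11.77 and 11.69 with siRNA 2 and 12.02, 11.99 and 11.96 with control siRNA, a difference of -0.33 (SE 0.06). The siRNA 1 arrays lay just above the controls, and most of the distance between the siRNAs was on the siRNA 2 side, at -0.27 from control against 0.06. Mt1 read 12.56, 12.49 and 12.62 with siRNA 1 and 12.23 and 12.24 with siRNA 2, around controls at 12.43, 12.43 and 12.45, a difference of -0.32 (SE 0.06). The groups did not overlap for either gene.

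Other members of these families, looked up after these values were seen, had smaller differences or, for Fabp7, one of the other sign and like size; differences between genes were not tested. Mt2, whose gene lies next to Mt1, read 13.62, 13.66 and 13.70 with siRNA 1 and 13.63 and 13.64 with siRNA 2, a difference of -0.03 (95% interval -0.16 to 0.10). Mt2 lay at the 99.7th percentile of genes and Mt1 at the 96.6th. Whether levels near the top of the scale narrow a difference was not examined. Mt3 and Mt4 differed by -0.01 and 0.05. Among fatty acid binding proteins Fabp7, a brain and radial glia form, lay the other way at 0.43 (SE 0.12), and Fabp5 differed by 0.07 with overlapping arrays. Crabp2 differed by 0.07 (SE 0.09). Rbp4, the plasma carrier of retinol, was looked up with them by its name and is not a member of the Crabp1 family. It lay the same way as Crabp1, at -0.20 (SE 0.08, unadjusted p = 0.0312, limma adjusted p = 1). Rbp4 read 7.51, 7.57 and 7.59 on the siRNA 1 arrays and 7.45 and 7.25 on the siRNA 2 arrays. Its level was below the median gene, at the 31.2nd percentile. Whether a probe set also detects a near-identical family member was not examined.

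Tcl1, a co-activator of Akt that is abundant in naive stem cells, read 11.68, 11.64 and 11.68 with siRNA 1 and 11.37 and 11.39 with siRNA 2, beside 11.59, 11.48 and 11.46 with control siRNA. Its siRNA 1 arrays lay above and its siRNA 2 arrays below all controls (difference -0.29, SE 0.06). The same order held for Mcfd2, a partner of the cargo receptor that carries clotting factors out of the endoplasmic reticulum, which read 9.21, 9.21 and 9.15 with siRNA 1, 8.91 and 8.89 with siRNA 2 and 9.002 to 9.088 with control siRNA (difference -0.29, SE 0.06). Ndrg2, a member of the N-myc downstream-regulated family, also had it, with a difference of -0.27 (SE 0.06).

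The remaining 10 named genes that were lower with siRNA 2 had siRNA 2 arrays below all controls while the siRNA 1 arrays were not all clear of them. Renbp, which encodes a renin-binding sugar epimerase, read 10.91, 10.81 and 10.99 with siRNA 1, 10.48 and 10.56 with siRNA 2 and 10.90, 10.78 and 10.77 with control siRNA (difference -0.39, SE 0.07). Serpinb6c, of the serine protease inhibitor family, had the largest named difference at -0.54 (SE 0.12). Its siRNA 1 arrays were spread, at 9.16, 8.86 and 8.69, above siRNA 2 at 8.24 and 8.48, and near-identical family members may share its probes. Kdelr3, a receptor that returns proteins to the endoplasmic reticulum, differed by -0.45 (SE 0.12), with siRNA 1 replicate 1 at 10.18 above the other two at 9.73 and 9.82. Cnot8, a deadenylase subunit of the CCR4-NOT complex, differed by -0.39 (SE 0.10), and Med31, a Mediator subunit, by -0.27 (SE 0.06). Decr1, a mitochondrial enzyme of unsaturated fatty acid oxidation, differed by -0.28 (SE 0.06). Fam183b, Pnma5, Snord118 and Cebpzos differed by -0.37, -0.34, -0.42 and -0.39.

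**Figure D1:**
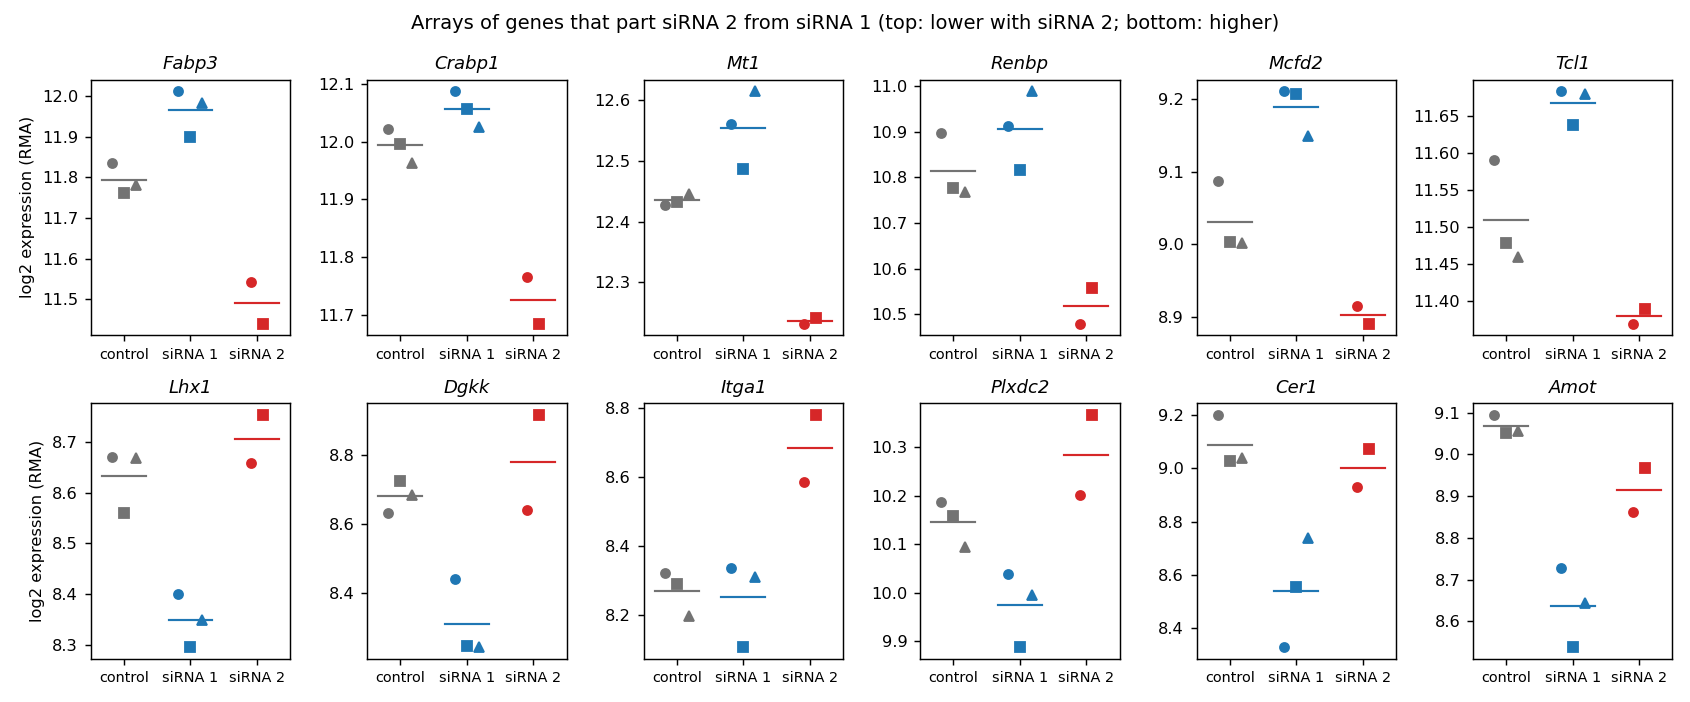
Level on each array (log2, y axis) of 6 genes lower with siRNA 2 (top) and 6 higher (bottom), with its own scale in each panel; circles, squares and triangles are replicates 1, 2 and 3, and lines are group means. Fabp3 lies at 11.44 and 11.54 with siRNA 2 and at 11.90 to 12.01 with siRNA 1, with the controls between.

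Lhx1, Dgkk and Itga1 had the smallest unadjusted p of the genes named as higher with siRNA 2. Lhx1, a LIM homeobox factor of the anterior mesendoderm, read 8.40, 8.29 and 8.35 with siRNA 1, 8.66 and 8.75 with siRNA 2 and 8.67, 8.56 and 8.67 with control siRNA. The siRNA 1 arrays were below all controls, and siRNA 2 lay at the control level (difference 0.36, SE 0.07, 1.28-fold, limma adjusted p = 1). Cer1, a secreted inhibitor of Nodal, BMP and Wnt, had the same order with 8.33, 8.55 and 8.74 on the siRNA 1 arrays, 8.93 and 9.07 on the siRNA 2 arrays and 9.20, 9.03 and 9.04 on the controls (difference 0.46, SE 0.11). Dgkk, a diacylglycerol kinase, read 8.44, 8.25 and 8.24 with siRNA 1 and 8.64 and 8.92 with siRNA 2, beside 8.63, 8.73 and 8.69 (difference 0.47, SE 0.09). For these genes and for Fabp7 it was siRNA 1 that stood apart from control.

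For another 6 genes siRNA 2 stood above all controls and siRNA 1 did not part from them on every array. Itga1, the integrin subunit of a collagen receptor, read 8.34, 8.11 and 8.31 with siRNA 1, 8.59 and 8.78 with siRNA 2 and 8.32, 8.29 and 8.20 with control siRNA (difference 0.43, SE 0.09). Prkch, a protein kinase C form, differed by 0.49 (SE 0.14), and its siRNA 1 arrays at 8.55, 8.31 and 8.79 reached close to siRNA 2 at 8.88 and 9.20. Rhox9, an X-linked homeobox gene of a cluster of near-identical copies, read 10.84, 10.82 and 11.34 with siRNA 1 and 11.39 and 11.47 with siRNA 2 (difference 0.43, SE 0.14). In Rhox9 siRNA 1 replicate 3 lay beside siRNA 2 and the other two siRNA 1 arrays within the controls, at 10.79 to 10.87. Brpf3, a scaffold of histone acetyltransferases, Glis3, a zinc finger factor, and Hip1, an endocytic adaptor, differed by 0.29, 0.29 and 0.30.

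Trim67, Plxdc2, Wars2 and Sema6a lay below all controls on every siRNA 1 array and above all controls on both siRNA 2 arrays. Sema6a, a transmembrane axon guidance ligand, read 11.23, 11.16 and 11.19 with siRNA 1, 11.41 and 11.54 with siRNA 2 and 11.33, 11.26 and 11.40 with control siRNA (difference 0.28, SE 0.07). Wars2, the mitochondrial tryptophanyl-tRNA synthetase, differed by 0.24 (SE 0.06) with siRNA 2 replicate 1 only just above the highest control, both at 9.39. Trim67 and Plxdc2 differed by 0.24 and 0.31. Polk, a translesion DNA polymerase, had the same order at 0.22 (SE 0.06). Amot, a Hippo pathway scaffold, had both siRNAs on the same side of control, with siRNA 1 at 8.73, 8.54 and 8.64 and siRNA 2 at 8.86 and 8.97, all below the controls at 9.09, 9.05 and 9.06.

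**Figure D2:**
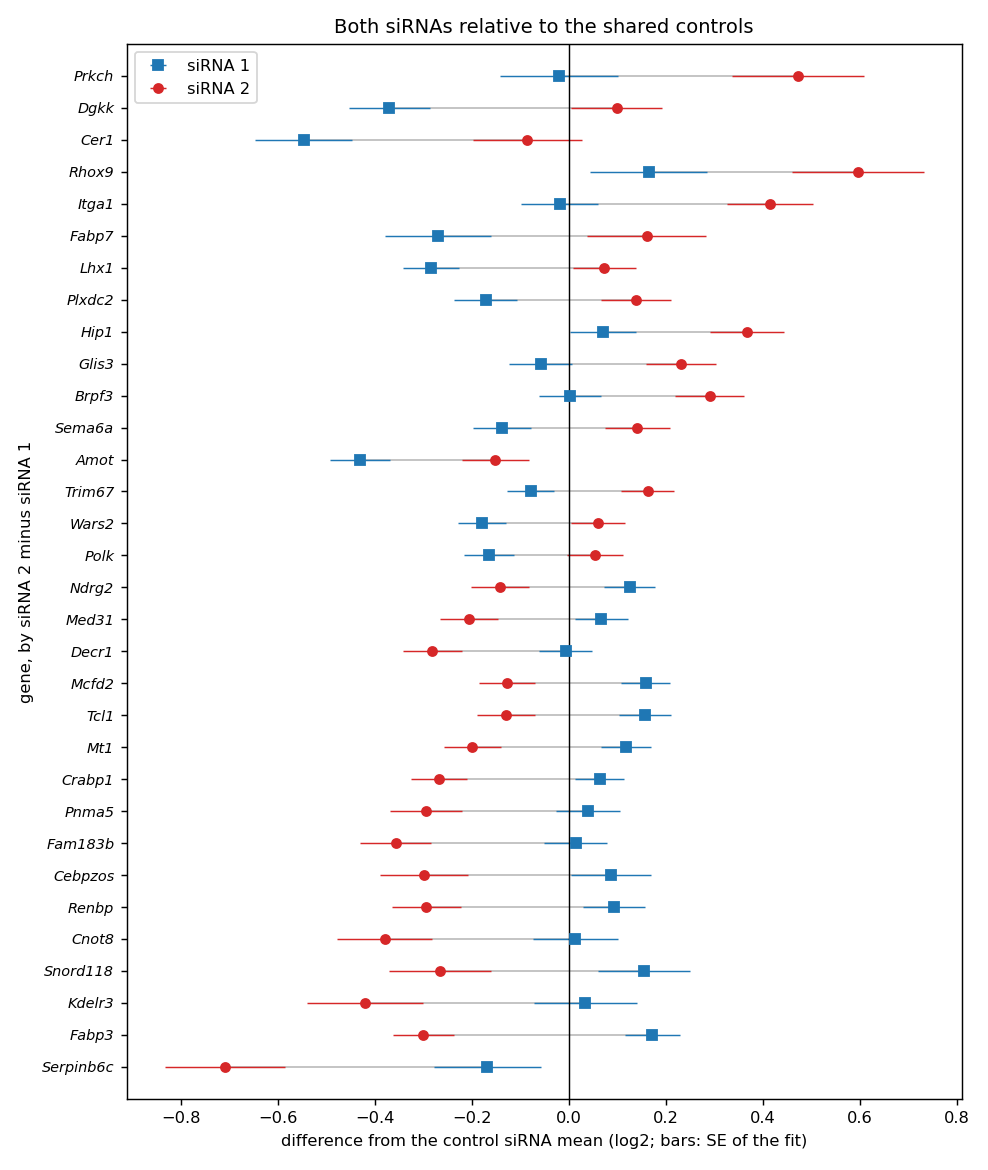
Difference from control siRNA (log2) with siRNA 1 and with siRNA 2 for the named genes, each with bars of 1 SE from the limma fit, ordered by the difference between the siRNAs. Both differences use the same control arrays; Fabp3 lies at 0.17 with siRNA 1 and at -0.30 with siRNA 2, and Cer1 lies below control with siRNA 1.

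Of the 31 genes named by size and p, 10 lay on opposite sides of control with the 2 siRNAs (4 higher with siRNA 2, 6 lower), 16 had siRNA 2 alone clear of the controls and 4 siRNA 1 alone. These positions come from genes chosen for their separation and describe only them. Fewer arrays had to lie clear of the controls for siRNA 2 than for siRNA 1. The siRNA 1 arrays also spread more, with a median SD over genes of 0.095 against 0.06. The split of 16 to 4 therefore does not show that siRNA 2 departed further from control, and the shares over all genes are not given.

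Ppp3cb, the targeted gene, read 10.52, 10.68 and 11.09 with siRNA 1 and 11.07 and 11.16 with siRNA 2, beside 10.70, 10.55 and 10.64 with control siRNA. Its probe set (10417895) is annotated to the gene as a whole, so it does not check the level of the CnAb1 variant. siRNA 1 replicate 3 lay with the siRNA 2 arrays, and siRNA 1 replicates 1 and 2 lay with or next to the controls. The difference was 0.35 (SE 0.14, 95% interval 0.05 to 0.66; limma adjusted p = 1; two-sided exact permutation p = 0.3 over the 5 arrays, where 0.1 is the smallest possible). It was 0.23 without siRNA 1 replicate 1, 0.52 without siRNA 1 replicate 3, 0.11 with array weights and 0.03 without siRNA 1 replicates 1 and 2 together.

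Of the 14 calcineurin subunits and regulators tested, 10 lay higher and 4 lower with siRNA 2, with a median of 0.03 beside -0.01 over all genes, and none was called. For this list and those below, the shares over all genes were 44.5% higher and 55.5% lower. At an unadjusted p under 0.05 they were 1.45% higher and 3.02% lower. The list's median was -0.01 without siRNA 2 replicate 2. Ppp3ca, the alpha catalytic subunit, differed by 0.05 (SE 0.08), and Ppp3r1, the regulatory subunit, by -0.03 (SE 0.07); both turned sign when single siRNA arrays were left out, Ppp3ca without siRNA 2 replicate 2 and Ppp3r1 without siRNA 1 replicate 1. Rcan1, an inhibitor of calcineurin that NFAT induces, read 10.22, 9.997 and 10.17 with siRNA 1 and 10.12 and 10.19 with siRNA 2 (difference 0.03, 95% interval -0.15 to 0.21, and below 0 without siRNA 1 replicate 2 or siRNA 2 replicate 2). Of 10 NFAT factors and targets 8 lay higher and 2 lower (median 0.05, but 0.01 without siRNA 1 replicate 3 and 0.10 without siRNA 2 replicate 1), and 0 were at an unadjusted p under 0.05.

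**Figure D3:**
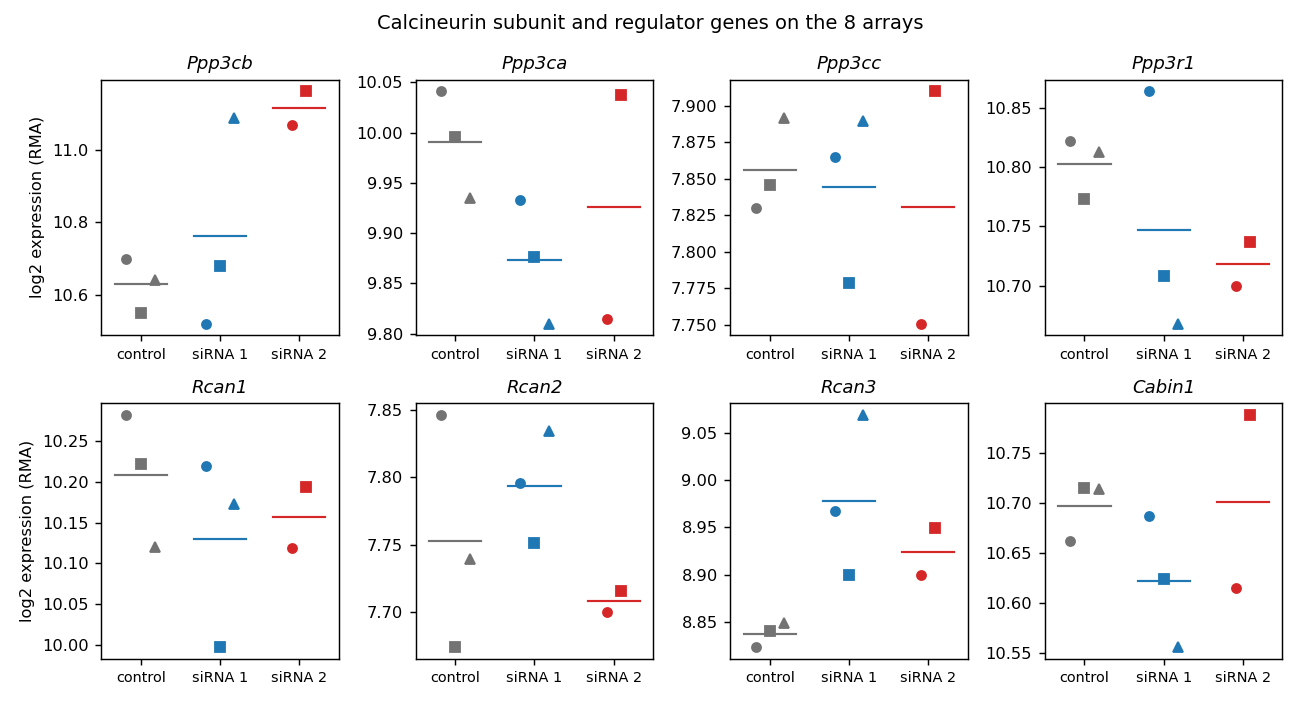
Level on each array (log2, y axis, with its own scale in each panel) of calcineurin genes with control siRNA, siRNA 1 and siRNA 2; circles, squares and triangles are replicates 1, 2 and 3, and lines are group means. Ppp3cb lies at 11.07 and 11.16 with siRNA 2, and siRNA 1 replicate 3 at 11.09 lies between them.

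No gene known to answer to transfected RNA was called, and the medians of their lists lay near 0. Of 14 genes of RNA sensing 7 lay higher and 7 lower (median -0.004, and 0.004 after quantile normalization), with Irf3, a factor that switches on interferon genes, at -0.14 (SE 0.06). Of 18 interferon response genes 6 lay higher and 12 lower (median -0.01, and 0.01 after median centring), and 0 had an unadjusted p under 0.05. Of 13 genes of the small RNA machinery 11 lay higher and 2 lower (median 0.04). The 3 at an unadjusted p under 0.05 were Dgcr8, which with Drosha cuts primary microRNAs, Dicer1, which cuts their hairpins, and Tnrc6b, an Argonaute partner, at 0.14, 0.13 and 0.15. Over all genes 1.45% were higher at such a p. Dgcr8 read 10.82, 10.79 and 10.84 with siRNA 1 and 10.93 and 10.98 with siRNA 2, beside 10.85, 10.84 and 10.83. This list's median was -0.002 without siRNA 2 replicate 2.

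Cell state lists had medians of either sign. The median of general and naive pluripotency lay close to that over all genes, -0.01. Of 25 genes of general and naive pluripotency 8 lay higher and 17 lower with siRNA 2 (median -0.02, and 0.002 without siRNA 2 replicate 1), and 3 of them, Tcl1, Fgf4 and Klf2, were lower at an unadjusted p under 0.05. Fgf4, the growth factor through which stem cells signal to themselves, read 12.42, 12.26 and 12.21 with siRNA 1 and 12.11 and 12.15 with siRNA 2, with controls at 12.28, 12.24 and 12.23. Klf2, a naive-state factor, read 11.15 and 11.41 with siRNA 2, and the second overlapped siRNA 1 at 11.39 to 11.55. Of 13 genes of the formative and primed epiblast 11 lay higher and 2 lower (median 0.07, but 0.01 without siRNA 2 replicate 2 and 0.13 without siRNA 2 replicate 1 or siRNA 1 replicate 3). Cdh2, N-cadherin, read 9.79, 9.60 and 9.95 with siRNA 1 and 10.05 and 10.12 with siRNA 2, where the controls read 10.03, 10.07 and 10.05 (difference 0.31, SE 0.09). Fgf5, the classical epiblast marker, differed by 0.23 (SE 0.07) and Dnmt3a, a de novo DNA methyltransferase, by 0.19 (SE 0.08). For Cdh2 siRNA 1 was the group below control.

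The 8 tested genes of the 2-cell-like state, a rare state of stem cell cultures, together with Tdpoz genes, had the largest list median at 0.19, with 7 higher and 1 lower. That median was 0.09 without siRNA 1 replicate 2 and 0.25 without siRNA 1 replicate 3. Tmem92 read 8.23, 8.21 and 8.55 with siRNA 1 and 8.57 and 8.71 with siRNA 2, beside 8.56, 8.96 and 8.77 (difference 0.31, SE 0.13), and was the member at an unadjusted p under 0.05. Both siRNAs lay below control in this list, with medians of -0.38 and -0.13. Zscan4c, Zscan4d, Zscan4f, Tcstv1, Usp17le, Tdpoz4, Gm4027 and Dux were not analysed here, and the Usp17l and Tdpoz genes are near-identical copies whose probes may be shared. Of 16 germ cell genes 3 lay higher and 13 lower (median -0.07, but -0.02 without siRNA 1 replicate 3 and -0.11 without siRNA 1 replicate 2). Gtsf1 and Mael, factors of the piRNA pathway, differed by -0.30 (SE 0.07) and -0.23 (SE 0.06), and Nanos3, an RNA-binding factor of primordial germ cells, by 0.17 (SE 0.06). Gtsf1 lay below the controls with both siRNAs, at 7.87 to 7.88 with siRNA 1 and at 7.66 and 7.50 with siRNA 2.

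Lineage lists had small medians. The endoderm split below, 7 higher and 11 lower, is near that over all genes (44.5% and 55.5%) and is no result about the list. Of 21 mesoderm genes 14 lay higher and 7 lower (median 0.03, and below 0 without siRNA 1 replicate 1), with Lhx1 and Mixl1 at an unadjusted p under 0.05. Mixl1, a primitive streak factor, read 8.36, 8.16 and 8.42 with siRNA 1 and 8.47 and 8.78 with siRNA 2 (difference 0.31, SE 0.12). Of 18 endoderm genes 7 lay higher and 11 lower (median -0.04, and -0.02 without siRNA 1 replicate 1 or siRNA 2 replicate 1): Cer1 was higher, and Col4a2, a basement membrane collagen, and Apoe, a lipid carrier, were lower at -0.18 and -0.16. Of 14 trophectoderm genes 10 lay higher and 4 lower (median 0.06, from 0.01 without siRNA 2 replicate 2 to 0.10 without siRNA 2 replicate 1), with Gata2 at 0.21 (SE 0.09). The 16 neuroectoderm genes lay 8 higher and 8 lower.

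Among signalling lists the response to FGF and ERK, the pathway that moves stem cells out of the naive state, had the lowest median at -0.08, with 4 genes higher and 10 lower. It was -0.01 when siRNA 1 replicate 1 was left out, -0.02 when siRNA 2 replicate 1 was, -0.12 when siRNA 1 replicate 2 was and -0.16 when siRNA 2 replicate 2 was. Spry1, a feedback inhibitor of the pathway, read 10.32, 10.18 and 10.33 with siRNA 1, 10.03 and 10.03 with siRNA 2 and 10.27, 10.11 and 10.15 with control siRNA (difference -0.24, SE 0.07). Fos, an immediate early gene, differed by -0.14 (SE 0.06). Of 18 FoxO targets 8 lay higher and 10 lower. That split is near the one over all genes (44.5% and 55.5%) and is no result about the list. Ccng2, Txnip and Klf6 were lower at -0.30, -0.16 and -0.14. The list median of -0.03 was above 0 without siRNA 1 replicate 1 and without siRNA 2 replicate 1. Amot, in the Hippo list, Lgr5, a Wnt target, and Id4, a BMP target, were the members of their lists at an unadjusted p under 0.05, at 0.28, 0.22 and -0.16. Of 18 genes of Akt, the mTOR complexes and the COG complex 0 were, with 11 higher and 7 lower.

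Metabolic and stress lists had medians within a few hundredths of 0. Splits such as 7 higher and 12 lower, or 7 and 10, are near that over all genes (44.5% and 55.5%). They are no result about those lists. Of 12 genes of serine and one-carbon metabolism 2 lay higher and 10 lower (median -0.05, and -0.03 without siRNA 1 replicate 1 or 3). Psph, the last enzyme of serine synthesis, read 9.74, 9.70 and 9.75 with siRNA 1 and 9.55 and 9.47 with siRNA 2, beside 9.84, 9.73 and 9.73 (difference -0.22, SE 0.06), and Gcat, of threonine breakdown, differed by -0.19 (SE 0.08). Of 19 genes of the ATF4 and amino acid response 7 lay higher and 12 lower (median -0.02, and above 0 after median centring), with the stress factors Nupr1 and Ddit3 at -0.23 and -0.18. Of 17 genes of the unfolded protein response 5 lay higher and 12 lower (median -0.03, from -0.06 without siRNA 2 replicate 2 to -0.01 without siRNA 1 replicate 1), with Creld2, an endoplasmic reticulum chaperone, at -0.15. Cholesterol synthesis (16 genes, 6 higher and 10 lower) and p53 targets (16 genes, 11 higher and 5 lower, median 0.05) had 0 members at an unadjusted p under 0.05, and in glycolysis and hypoxia (17 genes, 7 higher and 10 lower, median -0.01, and 0.01 after median centring) Aldoc, an aldolase, lay at -0.21. The 22 cell cycle genes divided evenly, 11 and 11, with 0 at an unadjusted p under 0.05.

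**Figure D4:**
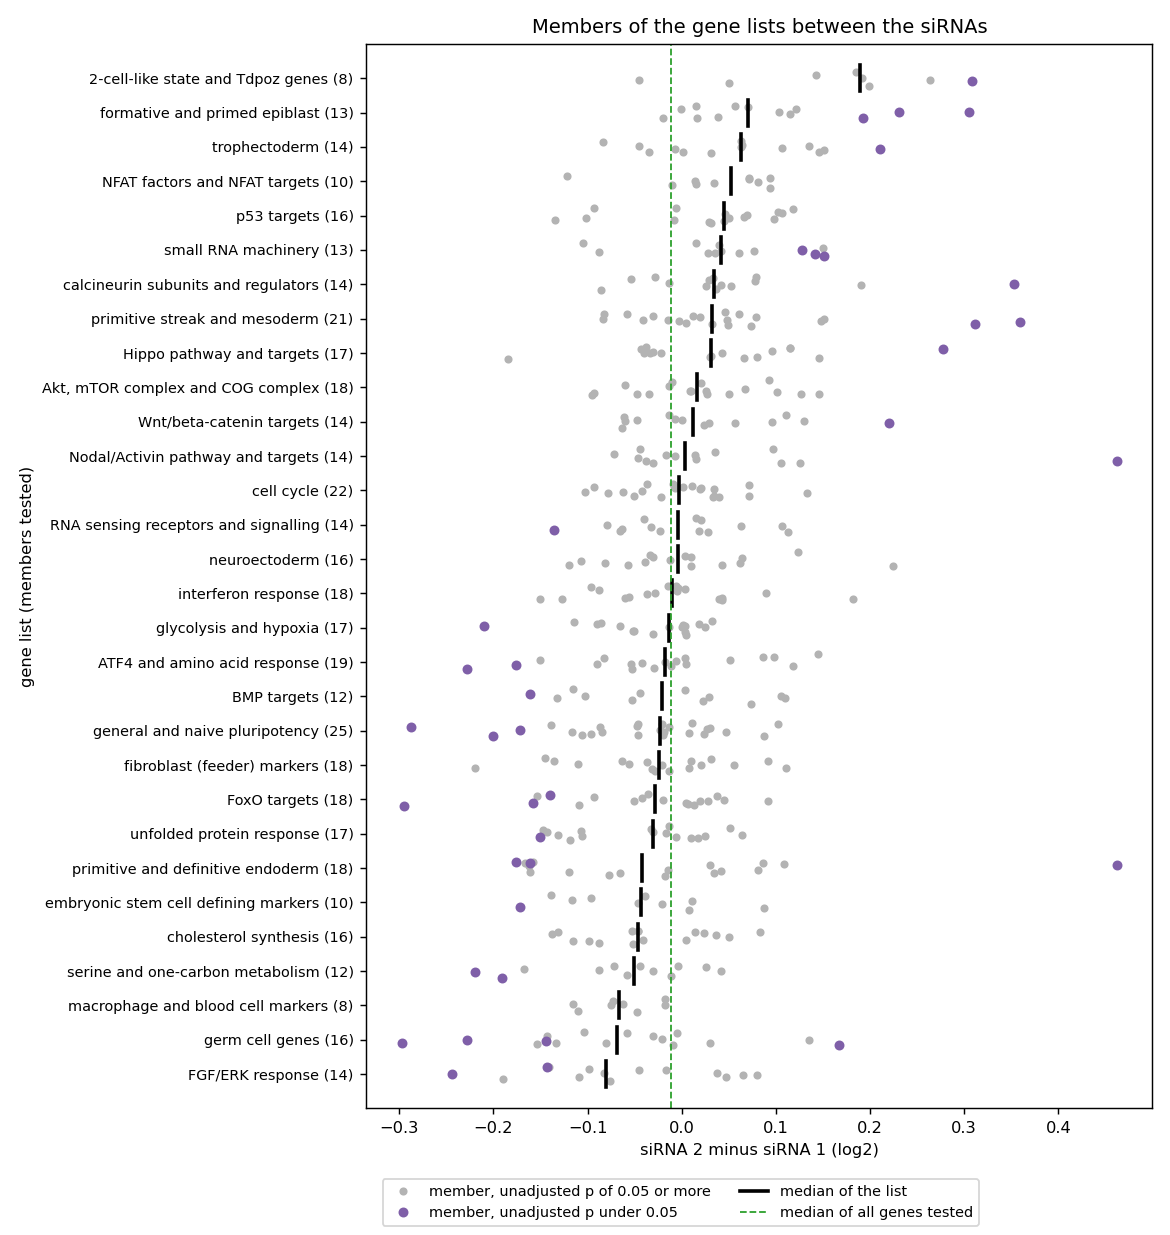
Difference between siRNA 2 and siRNA 1 (log2, x axis) for each member of each list, 1 point per gene (purple at an unadjusted p under 0.05), with a black bar at the list median and a dashed line at the median of all genes tested. Medians run from -0.08 for the FGF/ERK response to 0.19 for the 2-cell-like state and Tdpoz genes.

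Markers of other cells that a stem cell culture can hold were measured on the same arrays. The 18 fibroblast (feeder) markers had a mean per array of 9.02 to 9.14 with control siRNA, 9.08 to 9.27 with siRNA 1 and 9.11 to 9.14 with siRNA 2, and 7 lay higher and 11 lower. The 8 macrophage and blood markers tested all lay lower with siRNA 2 (median -0.07, and 0.05 without siRNA 1 replicate 1), with means of 7.98 to 8.27, 8.07 to 8.43 and 8.12 to 8.19. siRNA 1 replicate 1 was the highest array for both lists, and 6 of the 8 macrophage and blood markers lay below the median gene. Their part in the differences above was not tested, and in bulk RNA fewer cells of a type and less RNA per cell cannot be told apart.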

How the data were processed

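Total RNA of 8 samples was hybridised to Affymetrix arrays. The authors deposited log2 probe-set levels. RMA made them, according to the submitters' processing notes, and its software, version and array library are not named in the sources used here. Of 28815 probe sets 21780 had exactly 1 gene symbol, 1605 several and 5430 none in the platform annotation. The probe set with the highest mean over 8 arrays stood for each of 19935 genes (998 had a choice). Gene identifiers of 21689 probe sets were found in RefSeq, and 0 symbols differed. RMA equalises arrays, so a difference shared by most genes would not appear. No depth applies to arrays, and their number limits precision.

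Groups come from the sample titles, which speak of differentiation where the growth protocol says pluripotent conditions. Limma 3.58.1 (R 4.3.3; lmFit, eBayes) took 1 mean for each of the groups over all 8 arrays (residual df 5, prior df 4.6), two-sided, with Benjamini-Hochberg adjustment. The fit was tested on simulated data. Other steps ran in Python 3.11.15 (matplotlib 3.10.9, numpy 2.4.6, pandas 2.3.3).

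The comparison, the named genes and the 30 lists were chosen with earlier results of these data known. Genes were named per direction by the smallest unadjusted p (12), the largest difference among genes with arrays that do not overlap (6), and the smallest p among genes on opposite sides of all controls (5). Predicted gene models and genes under the median level in the brighter group were left out. Every calcineurin gene was added, with at most 3 members of any other list. List symbols were matched by symbol or synonym. Lists got counts and medians and no set test. The alternatives were quantile normalization, median centring, an expression filter, trend and robust moderation, array weights, the arrays' lower quartile as a covariate, every probe set fitted, a gene's probe sets averaged, only the siRNA arrays, a replicate block, each array left out, and siRNA 1 replicates 1 and 2 left out together.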

Additional observations from a re-analysis of the deposited data

Results flagged for a closer look

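For 12 named genes all siRNA 1 arrays lay on one side of all control arrays and both siRNA 2 arrays on the other side. The difference itself (siRNA 2 minus siRNA 1, log2) was tested with limma over all genes. It was 0.241 for Trim67, 0.31 for Plxdc2, 0.239 for Wars2, 0.279 for Sema6a and 0.218 for Polk, which were higher with siRNA 2. It was -0.473 for Fabp3, -0.331 for Crabp1, -0.317 for Mt1, -0.286 for Mcfd2, -0.287 for Tcl1, -0.268 for Ndrg2 and -0.161 for Id4, which were lower. None passed the threshold (adjusted p = 0.482 for Fabp3 and 1 for the others). Over all genes 36 (0.181%) and 47 (0.236%) had this order in the 2 directions. Some genes take it without any difference when arrays are so few, and how many was not tested. Groups of 2 and 3 arrays are too small for a check of single arrays against their group.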

How the results depend on the processing

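No gene was called under any alternative except trend and robust moderation, which called 3. The other counts are of genes at an unadjusted p under 0.05, all (893), higher (290) or lower (603) with siRNA 2. All, higher and lower were 2090, 843 and 1247 with array weights, 1890, 671 and 1219 with each array's lower quartile in the model, and 423, 113 and 310 with only the siRNA arrays. Median centring gave 469 higher and 366 lower, and quantile normalization 1369 in all and 654 higher. Without siRNA 1 replicates 1 and 2 together there were 1458 in all and 672 higher. With 1 array left out in turn the ranges were 421 to 1579 in all, 110 to 640 higher and 311 to 1160 lower. Arrays without overlap, above (1104) and below (1972), numbered 662 and 1260 with the expression filter, which tests fewer genes, 1724 and 1250 with median centring, and 5604 and 7271 without siRNA 1 replicates 1 and 2. Quantile normalization gave 2030 above. With 1 array left out they ran from 1860 to 3985 and from 3148 to 4782 (siRNA arrays), since fewer arrays have to separate. Apart from these constructions the cause was not tested. A replicate block gave 552 in all and 140 higher, with 0 called. Same-numbered siRNA 1 and siRNA 2 arrays deviated against each other (r = -0.547 and -0.522 over genes). The differently numbered pairs of the same arrays gave 0.547 and 0.522. The 2 siRNA 2 arrays deviate oppositely from their own mean, so these values mirror each other by construction. The labels do not say that replicate numbers mark pairs, and the numbers were not taken as pairs. All differences of the genes named by p, size or position kept their sign under the alternatives in which they were tested. The siRNA 1 and siRNA 2 arrays of these genes did not overlap, so leaving out or weighting arrays could not turn a sign. Their kept signs under those alternatives follow from how they were chosen. Cabin1, Ppp3ca, Ppp3r1, Chp1, Myoz1, Rcan1, Ppp3cc, Nfatc3, Ticam1, Usp18, Nes, Smad7 and Cd14, named as list members, did not keep their sign throughout. Medians of the 2-cell-like, epiblast, FGF/ERK, germ cell, serine, endoderm, cholesterol, unfolded protein, NFAT, p53 and stem cell marker lists kept theirs.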

Other observations

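Small nucleolar and small nuclear RNA genes, looked at as a class after the values of Rnu3a and Snord118 were seen, lay mostly lower with siRNA 2. Of 59 tested, 6 lay higher and 53 lower, 8 of the latter at an unadjusted p under 0.05 and 0 called (median -0.13 beside -0.01 over all genes). Over all genes 55.5% lay lower, and 3.02% were lower at an unadjusted p under 0.05. The 59 include Rnu3a and Snord118, which prompted the look, and members are not independent replicates. The class was not tested as a set, and its values under other scalings are not given. Snord15b, a box C/D RNA, read 9.71, 9.59 and 9.72 with siRNA 1 and 9.41 and 9.26 with siRNA 2, beside 9.56, 9.55 and 9.37 with control siRNA (difference -0.34, SE 0.08). The class was highest on siRNA 1 replicate 1, where its genes deviated from their means by 0.17 on average, against -0.03 and 0.02 on siRNA 1 replicates 2 and 3, -0.07 and -0.09 on the siRNA 2 arrays and -0.03 to 0.05 on the controls. Without siRNA 1 replicate 1 the median was -0.09. The 300 microRNA genes tested, 133 higher and 167 lower, had a median of -0.01.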
